A study of Mus musculus with 5 samples.

Results

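Man2a1 encodes alpha-mannosidase II, an enzyme of the Golgi apparatus. It is 1 of 417 genes of mouse chromosome 17 that could be read in exons and introns on a tiling array, and it was covered by 915 of the 388000 probes, those at array file positions 62955000 to 63109999. This stretch was chosen by the cDNA/input ratios of the same 5 arrays, which showed exon-like peaks and intron signal there. Its levels are therefore given as a description. The arrays map transcription along the chromosome in fibroblasts that carry a deletion on one or the other parental copy. The RNA came from a pair of spontaneously immortalised fibroblast lines of 12.5 dpc mouse embryos of strain FVBN. MEFF has the genotype Thp/+ and MEFB the genotype +/Thp, so both lines carry the Thp deletion, on opposite parental chromosomes. Per the labels this is a loss of 4.6 Mb or more that reaches from T to Sod2, and Man2a1 lies outside it. There were 2 arrays of MEFF total RNA, 2 of polyA RNA from MEFF and 1 of polyA RNA from MEFB. Each line is a single line, and no line without the deletion was analysed here. Each array compared double-stranded cDNA in the Cy3 channel with sheared genomic DNA of that line, the input, in the Cy5 channel. The cDNA does not tell the strands apart.

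Proteins that pass through the secretory pathway receive N-linked sugar chains rich in mannose, which enzymes of the Golgi then trim and extend. Alpha-mannosidase II removes mannose residues after the first N-acetylglucosamine has been added by Mgat1, and this trimming opens the way to complex N-glycans. A related enzyme encoded by Man2a2 on another chromosome can carry out the same step. In a transcribed gene, polyA RNA holds mostly spliced exons, while total RNA also holds unspliced and non-polyadenylated RNA. On a tiling array, exons of a spliced RNA appear as short peaks, and introns show how much RNA still holds them.

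The sources used here do not name the genome build of the array file positions. Probes were therefore placed on build NCBIM37 from the input channel, without the cDNA. In a check that used no intensity, the 915 probes were set at 2000001 shifts from file position to genome, from 1000000 to 3000000 bases. At each shift, the share of their 16-base words that recur at least 20 times on chromosome 17 was computed. The lowest share, 1.63%, lay at a shift of 1995333 bases, against a median of 10.6% over these shifts. The lowest share away from that shift was 2.08%, so this check alone separates the best place from the next by a small margin. Shifts outside that range were not checked. Unshifted, the stretch would lie within Efna5 (chr17:62953533-63230666). The placing by input was itself started from a part of the stretch searched only at shifts near the one found. The placing by input put the stretch at shifts between 1994793 and 1995576 bases, which is on Man2a1 (ENSMUSG00000024085.7, plus strand, chr17:64950076-65104450, 154375 bases). In GENCODE vM1 the transcript Man2a1-001 has 22 exons, starts with a 5′UTR in exon 1 and ends with a 3′UTR in exon 22. Of the 915 probes, 47 were exonic and 830 intronic, and 38 were neither, as they lay near an exon edge or past the end of the gene. A further 6 exonic probes lay just before the stretch, since its first position fell 500 bases into exon 1, which makes 53 exonic probes in all. Exons 3, 11, 12, 17, 18 and 21 held no exonic probe, so 16 of 22 exons were read.

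The 3 internal coding exons with the highest mean level over the 5 arrays are printed here, to show what the strongest peaks of the stretch read. They come from NCBIM37, plus strand, 5′ to 3′, with the exon in capitals and 20 bases of intron on each side in lower case.
exon 10, chr17:65024385-65024607: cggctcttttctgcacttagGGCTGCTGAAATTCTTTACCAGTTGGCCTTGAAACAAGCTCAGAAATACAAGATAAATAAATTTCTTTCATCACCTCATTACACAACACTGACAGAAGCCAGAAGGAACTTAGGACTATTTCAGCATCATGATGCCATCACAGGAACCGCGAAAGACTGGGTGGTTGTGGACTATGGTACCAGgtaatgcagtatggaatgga
exon 13, chr17:65060024-65060229: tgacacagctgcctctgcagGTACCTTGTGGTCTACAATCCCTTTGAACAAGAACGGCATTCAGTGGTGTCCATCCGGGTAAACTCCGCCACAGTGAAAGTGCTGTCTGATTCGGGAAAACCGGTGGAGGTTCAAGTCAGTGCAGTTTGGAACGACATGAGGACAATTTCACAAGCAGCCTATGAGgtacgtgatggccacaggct
exon 20, chr17:65090000-65090243: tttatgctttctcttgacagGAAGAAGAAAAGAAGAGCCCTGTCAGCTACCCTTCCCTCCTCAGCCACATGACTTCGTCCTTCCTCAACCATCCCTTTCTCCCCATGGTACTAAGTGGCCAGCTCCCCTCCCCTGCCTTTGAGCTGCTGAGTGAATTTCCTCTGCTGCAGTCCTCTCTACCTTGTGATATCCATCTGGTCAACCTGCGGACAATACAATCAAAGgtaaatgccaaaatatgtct
All 21 introns of the transcript begin with GT and end with AG, as the lower-case ends of these 3 show.

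Levels are log2(cDNA/input), centred on the median of each array, so that 0 is the level of the middle probe of chromosome 17. Signal over background differed between arrays. The 99th percentile of cDNA intensity lay 5.42 and 5.33 times above the median on the arrays of total RNA, 9.17 and 22.4 times on the polyA arrays of MEFF and 20.7 times on the MEFB array. The lowest cDNA intensity was 1442 and 1486 on the arrays of total RNA, against 588.2, 305 and 334.3 on the polyA arrays. The part of this floor in the differences given here was not tested. In the stretch, 5 cDNA values on the MEFB array and 0 on the others were at the scanner limit. All 5 were exonic, 1 each in exons 9, 10, 13, 20 and 22, so the MEFB exon levels and exon minus intron gaps that include them are lower bounds. Per the file headers, the 2 total RNA arrays have image numbers apart from those of the 3 polyA arrays. Anything that goes with the image number thus cannot be told apart from RNA fraction. Of the fibroblast genes looked up on the chromosome, Thbs2, Ltbp1, Cyp1b1 and Runx2 had exon means between 0.375 and 5.24 over genes and arrays. The highest values, 5.24 for Thbs2 and 5.10 for Cyp1b1, were those of the MEFB array. In MEFF total RNA Thbs2 read 0.491 and 0.375, at or below the median exon mean of the placed genes, 0.491 and 0.487. On the MEFF polyA arrays Thbs2 read 1.28 and 1.95, with medians of 1.05 and 1.68. The readable markers of epithelium (Cldn6), macrophages (Emr1) and antigen presenting cells (H2-Aa) lay between −0.93 and 0.027. Epcam, Trem2, Pou5f1 and H2-Ab1 had no placed exonic probe.

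The exons of Man2a1 stood far above its introns on every array. The mean over the 53 exonic probes was 1.86 and 1.85 on the arrays of MEFF total RNA, 2.98 and 3.90 on the polyA arrays of MEFF, and 5.05 on the array of MEFB. The order of the groups was MEFF total RNA, then MEFF polyA RNA, then MEFB polyA RNA, and no array overlapped with those of another group. The group means were 1.85 (SD 0.013, n = 2) for total RNA and 3.44 (SD 0.65, n = 2) for MEFF polyA RNA, so the spread between the polyA arrays was under the difference between the groups, −1.59 (total minus polyA).

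**Figure D1:**
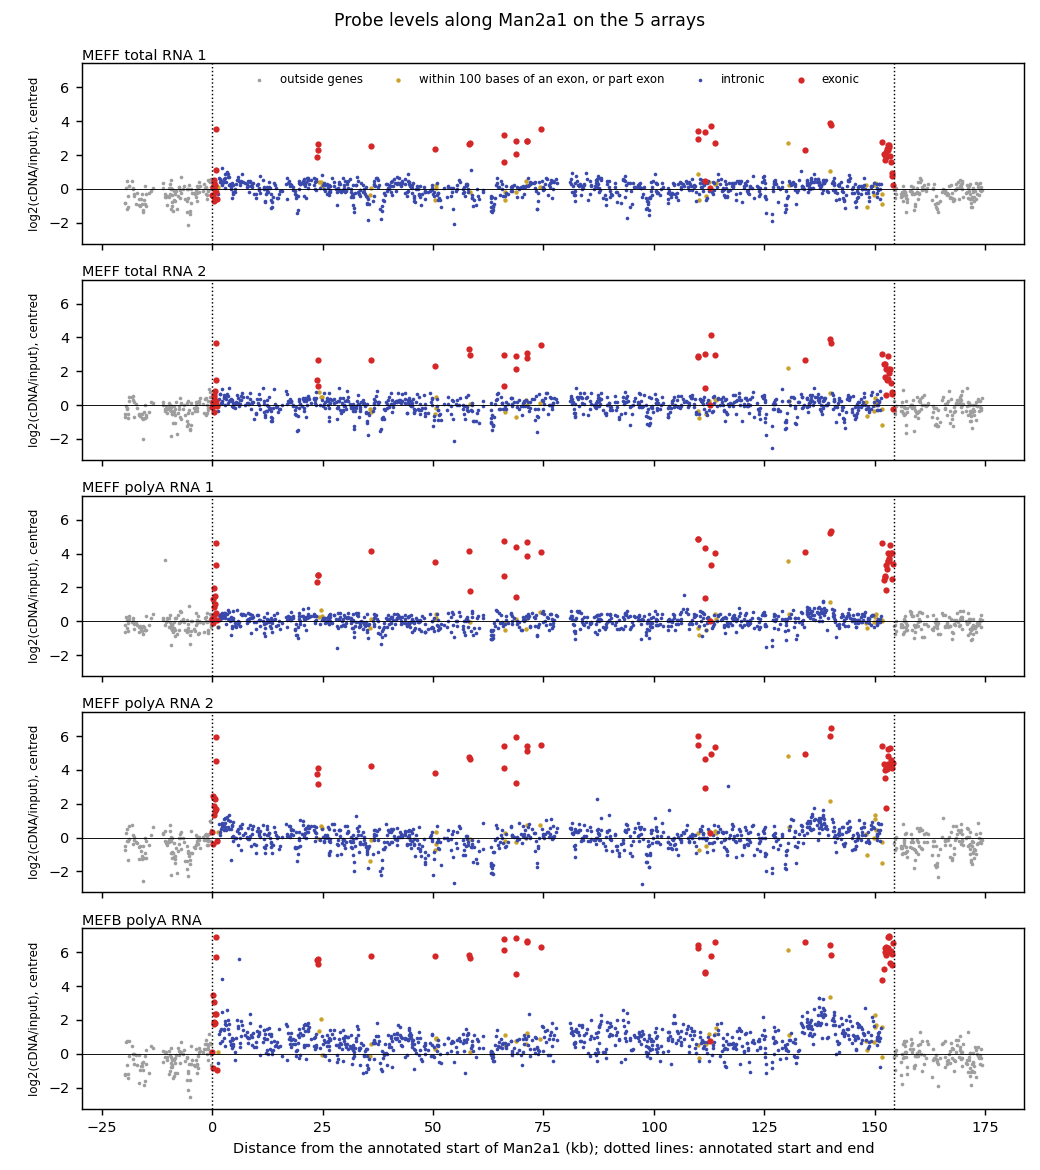
Probe levels, log2(cDNA/input) centred on the array median, against the distance from the annotated start of Man2a1 in kb, for each of the 5 arrays, with exonic, intronic, exon-edge and intergenic probes in separate colours. Exonic probes form narrow peaks between the dotted lines at the annotated start and end, and the intronic probes of the MEFB array lie about 0.8 above 0 while those of the MEFF arrays lie near 0.

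The mean over the 830 intronic probes was 0.0019 and −0.0027 on the arrays of total RNA, 0.030 and −0.0031 on the polyA arrays of MEFF, and 0.81 on the MEFB array. On this centred scale, without background correction, the MEFF arrays of both RNA fractions thus had nearly the same intron level, and the MEFB array stood alone. The 715 probes of the gene-free flanks, from AU016765 to the start of Man2a1 and from its end to 4930583I09Rik, had means of −0.30, −0.28, −0.18, −0.41 and −0.31 in the same order of arrays. Introns were above these flanks by 0.31 and 0.28 in total RNA, by 0.21 and 0.41 in MEFF polyA, and by 1.12 in MEFB polyA. Of the intronic probes, between 68.7% and 73.6% exceeded the median flank probe on the MEFF arrays, and 93.5% did so on the MEFB array. The flanks of the MEFB array lay within the range of the MEFF arrays. With normexp, a background correction described below, introns were above the flanks by 1.14 and 1.01 in total RNA. In MEFF polyA it was then 0.69 and 0.90, so near equality of the fractions depends on the processing.

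Exon minus intron, the measure of how sharply the exons stood out, was 1.86 and 1.85 in total RNA, 2.95 and 3.91 in MEFF polyA and 4.24 in MEFB polyA. On the linear scale of the ratios these gaps correspond to 3.64 and 3.6 times in total RNA, 7.75 and 15 times in MEFF polyA and 18.9 times in MEFB polyA. Levels above 2 were reached by 30 and 28 exonic probes in total RNA, by 38 and 44 in MEFF polyA, and by 46 in MEFB polyA, out of 53. In the introns such levels were reached by 0, 0, 0, 2 and 39 of 830 probes on the same arrays.

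The exons formed a profile along the gene that was shared by the arrays. Exon 20, which lies near the 3′ end of the coding sequence, had the highest level of the exons on both MEFF polyA arrays, with 5.28 and 6.24. It read 3.85 and 3.79 in total RNA and 6.14 in MEFB polyA, where exon 19 was at 6.63. Exon 20 was the exception to the order of the lines, since MEFF polyA replicate 2 exceeded the MEFB array there, where 1 of its 2 probes was at the scanner limit on the MEFB array. Exon 13 had 3.17 and 2.88 in total RNA, 4.86 and 5.74 in MEFF polyA and 6.32 in MEFB polyA. Exon 10, with 1 probe, had 3.56 and 3.57, then 4.10 and 5.49, then 6.30. Exon 15, with 1 probe, was the exon in which the fractions differed least, with 3.71 and 4.12 in total RNA and 3.35 and 4.95 in MEFF polyA. There the total RNA arrays lay between the polyA replicates, and in exon 6 MEFF polyA replicate 1, with 2.97, lay between the total RNA arrays, with 2.69 and 3.13. In these 2 exons the fractions overlapped. Exon 14, the lowest of the internal exons in MEFB polyA, had 1.91 and 2.02 in total RNA, 2.87 and 3.77 in MEFF polyA and 4.81 in MEFB polyA. Across the 16 exons, the correlation of the mean level with GC content was −0.47, a description over exons that share the same libraries and have between 1 and 17 probes each. Exon 1 had both the highest GC content, 71.4%, and the lowest mean level over the arrays, 1.29, with exon 14 next at 3.08. The correlation without exon 1 was not computed, so no trend over the other exons is read from it.

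**Figure D2:**
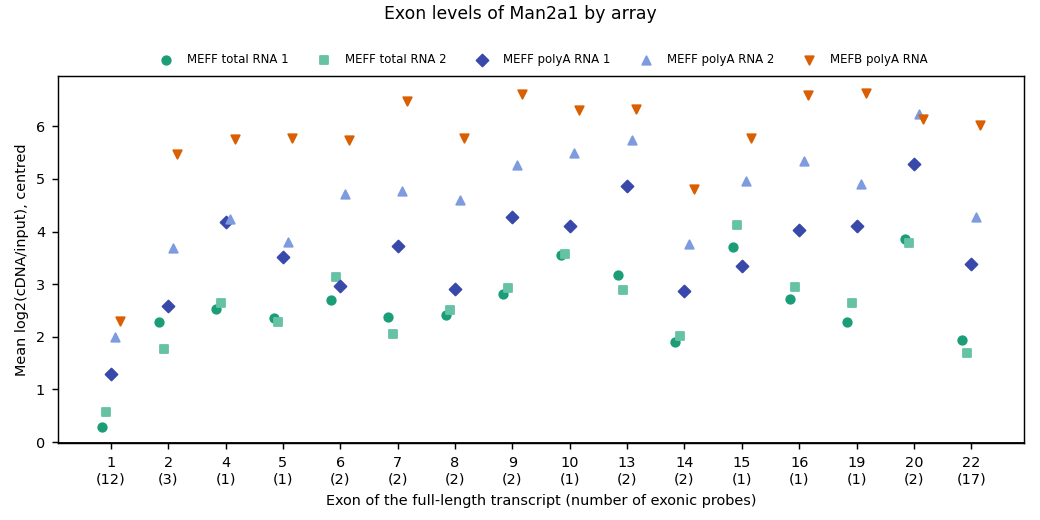
Mean log2(cDNA/input) of the exonic probes of each exon that was read, by exon number, with the number of probes in brackets and 1 symbol for each of the 5 arrays. The MEFB array is the highest in 15 of 16 exons, and both MEFF polyA arrays lie above both total RNA arrays in 14 of 16. At single exonic probes of the 417 genes these orders held at 33.1% and 60.9%, and shares over whole exons were not computed.

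Counted over probes, both MEFF polyA arrays were above both total RNA arrays at 46 of the 53 exonic probes of Man2a1, or 86.8%. Over the 11487 exonic probes of the 417 genes that could be placed, the share was 60.9%. The opposite order was found at 0 of the 53, against 5.14% of all exonic probes. In the introns of Man2a1 the same order held at 159 of 830 probes and the opposite order at 154, or 19.2% and 18.6%, against 20.2% and 17.9% over the intronic probes of all placed genes. The intron shares were thus near the background. The MEFB array was above all 4 MEFF arrays at 47 of 53 exonic probes of Man2a1, or 88.7%, with 33.1% over all exonic probes. It was above them at 673 of 830 intronic probes, or 81.1%, with 32.6% over all intronic probes. The stretch was chosen with the latter difference in view, so nothing is read from it beyond its size.

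The 3′ end of Man2a1 marked the end of the signal. The last probe inside the gene, which starts 225 bases before the annotated end, read 3.41 and 4.40 in MEFF polyA and 6.56 in MEFB polyA. The next probe, which starts 33 bases past the end, read −0.27, −0.31 and −0.20 on these arrays. The mean of the 5 probes in the first 500 bases past the end was −0.17 and −0.16 in total RNA, −0.37 and −0.34 in MEFF polyA and −0.19 in MEFB polyA, all below 0. Within the 3′UTR, the fractions parted toward the end. The 13 probes up to the last 500 bases of the gene averaged 2.16 and 1.89 in total RNA and 3.32 and 4.19 in MEFF polyA. The 3 probes in the last 500 bases averaged 0.64 and 0.39 in total RNA, against 3.31 and 4.32 in MEFF polyA and 5.91 in MEFB polyA. The level in total RNA was thus lower at the very end than in the rest of the 3′UTR on both arrays, while the polyA arrays held their level. Gm17133, an annotated transcript on the other strand, reaches to chr17:65103436. It overlaps the rest of the 3′UTR in part and the last 500 bases not at all. The cDNA has no strand, and the part of this overlap in the values was not tested. In the last 500 bases the fractions differed by −3.30 (total minus polyA, SD 0.18 for total RNA and 0.71 for polyA RNA, n = 2 each), and in the rest of the 3′UTR by −1.73. The smallest two-sided p that an exact permutation test of 2 against 2 arrays allows is 0.333, so none is given.

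**Figure D3:**
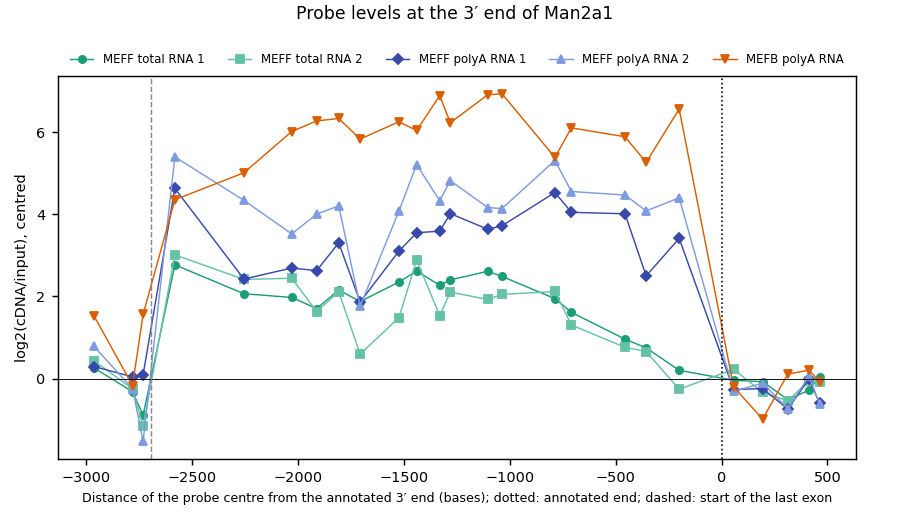
Log2(cDNA/input) of single probes against the distance of the probe centre from the annotated 3′ end of Man2a1 in bases, for the 5 arrays. All curves are near 0 past the dotted line at the end, and the total RNA curves come down over the last part before it while the polyA curves do not.

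The letters AATAAA, the common polyadenylation signal of mammalian genes, begin 24 bases before the annotated end of Man2a1 on its own strand. They are found in the last 50 bases of 51.2% of the 1091 protein-coding genes of the chromosome, searched on the strand of each gene. The match is a description of the sequence.

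The 5′ end had a weaker signal. Exon 1 has a GC content of 71.4%, the highest of the exons read, and its 12 probes averaged 0.29 and 0.58 in total RNA, 1.30 and 1.99 in MEFF polyA and 2.30 in MEFB polyA. The 9 probes placed nearest to its annotated start averaged −0.063 and 0.20 in total RNA, 0.84 and 1.5 in MEFF polyA and 1.76 in MEFB polyA. The next 2 probes, placed near the start codon, averaged 2.33 and 2.56, then 3.98 and 5.26, then 6.33. RefSeq's promoter table (GRCm38.p6) sets the start of Man2a1 913 bases downstream of the GENCODE start, close to where these 2 probes were placed. The 300 bases around that RefSeq start hold 30 CG dinucleotides, more than 88.3% of the 32851 promoters in the table, whose median is 7. The last probe placed in exon 1 read between −0.985 and 0.090 on the 5 arrays. The precision of the placing was not measured there, and it rests in part on neighbouring blocks. This segment had the lowest correlation of input with prediction, 0.293. Its shift was 1995576 bases, against 1994793 in the next segment and 1995333 in the repeat check. This probe may thus lie in the intron, and the places of the other exon 1 probes are uncertain to the same degree.

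The introns of Man2a1 were not uniform. Of 21 introns, 16 held at least 10 intronic probes, and in all 16 the MEFB array was above the 4 MEFF arrays. At single intronic probes of all placed genes the share was 32.6%. A share over whole introns of other genes, which average many probes, was not computed. On the MEFB array intron 19 was the highest of them, with a mean of 1.92 over 41 probes, followed by intron 20 with 1.29 over 61 probes. Intron 19 read 0.29 and 0.22 in total RNA and 0.50 and 0.83 in MEFF polyA, and there both polyA arrays were above both total RNA arrays. Intron 20 read −0.054 and −0.040 in total RNA and 0.12 and 0.19 in MEFF polyA, with the same order. These 2 introns were the only ones of the 16 with that order, and 1, intron 4, had the opposite order. At single intronic probes of all placed genes the 2 orders were found at 20.2% and 17.9%. Shares over whole introns of other genes were not computed, so nothing is read from these counts. The shorter intron 18, with 6 probes, read 1.63 on the MEFB array and between 0.10 and 0.34 on the MEFF arrays. Intron 1, of 22657 bases, had means of 0.14, 0.11, 0.076, 0.20 and 0.99. Intron 12, of 29078 bases, had −0.018, 0.024, 0.033, −0.032 and 0.94. Split into 3 equal parts from the 5′ to the 3′ end, the introns of the MEFB array averaged 0.70, 0.73 and 1.00, while the MEFF arrays stayed between −0.12 and 0.13 in these parts. The intron signal of the MEFB array thus ran along the whole gene and was highest in introns 18 to 20.

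The intron that a shorter annotated transcript keeps read below the mean of all introns on the polyA arrays, but not in total RNA. Man2a1-003 keeps intron 15, whose 5 probes read 0.034 and 0.073 in total RNA, −0.092 and −0.088 in MEFF polyA and 0.52 in MEFB polyA. In total RNA these values were above the means of all introns, 0.0019 and −0.0027. Gm17133, a processed transcript on the other strand, overlaps the 3′ end of Man2a1 at chr17:65098190-65103436. The 20 intronic probes inside it averaged −0.062, 0.11, 0.051, 0.33 and 0.98. The 254 intronic probes before it in the last of these 3 parts averaged 0.042, 0.000064, 0.12, 0.11 and 1.01. Intronic probes were kept away from any annotated exon, so these values hold no probe on an exon of Gm17133. They therefore cannot show whether its spliced RNA was present. As the cDNA has no strand, RNA from Gm17133 and from Man2a1 cannot be told apart in the overlap.

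Total and polyA RNA of MEFF were compared with limma on exon minus intron over the 417 placed genes with at least 5 exonic and 20 intronic probes. For Man2a1 the mean was 1.86 in total RNA and 3.43 in polyA RNA. The difference was −1.57 (SE 0.36, 95% interval −2.56 to −0.59), with an adjusted p of 0.055 (limma with Benjamini-Hochberg adjustment), which misses the threshold of 0.05. The background was 0% of the 417 genes called, with 211 at an unadjusted p under 0.05 and a median difference of −0.62. Man2a1 ranked 13 of 417 from the most negative, and 49 genes had a positive difference. After normexp background correction, which estimates and removes a background from each channel, the difference was −1.72 with an adjusted p of 2.7e-09, and 56.4% of the 417 genes passed. After quantile normalization between arrays it was −0.355 with an adjusted p of 0.013, and 44.4% passed. After loess it was −0.431 with an adjusted p of 0.53, and 0% passed. The direction was the same in all these settings, and the size after quantile normalization and loess was smaller by more than 1.5 times. Without MEFF polyA replicate 1 the main difference was −2.05, and without replicate 2 it was −1.10. Both passed the threshold, as did 73.4% and 66.2% of the 417 genes in these fits, so the pass is no mark of Man2a1. Whether the replicates are separate cultures is not said in the labels, and p-values then rest on a spread between arrays that may be technical.

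In windows of 5 kb with at least 8 probes, the stretch gave 31 windows. Averaged over them, the level was 0.0965 and 0.087 in total RNA and 0.18 and 0.18 in MEFF polyA, a difference of −0.088 (SD 0.0067 and 0.0036, n = 2 each). The exons fill little of the stretch, so this average moved little between the fractions. With limma, 0 of the 31 windows were called for total minus polyA RNA, against 0% of 15383 windows of the chromosome, of which 1189 had an unadjusted p under 0.05. After normexp 1 window was called lower in total RNA, with 3.37% of all windows called in either direction, and after quantile normalization 2 were, with 6.04%. Both counts out of 31 are near these shares, so the calls are no mark of the stretch. The window called after normexp, at file positions 63105000 to 63109999, holds the 3′UTR and read 0.85 and 0.80 in total RNA, 1.57 and 2.04 in MEFF polyA and 3.16 in MEFB polyA. Without MEFF polyA replicate 1, 13 windows were called in the main setting, 3 of them higher in total RNA, with 29.2% of all windows called. Without replicate 2 it was 6, with 20.8% of all windows called, which is near the background.

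Between the lines, the level of the stretch was 1.02 on the MEFB array against 0.18 on both MEFF polyA arrays, a difference of 0.84. The MEFB array was above all 4 MEFF arrays in 31 of 31 windows, against 30.9% of the windows of the chromosome. The differences from MEFF polyA RNA ran from 0.48 to 1.35 over the windows. With limma 0 of the 31 windows were called, with a lowest adjusted p of 0.066, against 0.00650% of 15383 windows and 2415 at an unadjusted p under 0.05. After normexp 25 of the 31 windows were called higher in MEFB, against 3.17% of all windows in either direction, and after quantile normalization 31 of 31, against 6.81%. With one MEFF polyA array left out, whichever it was, the main setting called 31 of 31, with 45.4% of all windows called without replicate 1 and 44.8% without replicate 2. This fit takes the single MEFB array to vary as much as the others do. Since the stretch was chosen with this difference known, these counts describe it and test nothing.

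**Figure D4:**
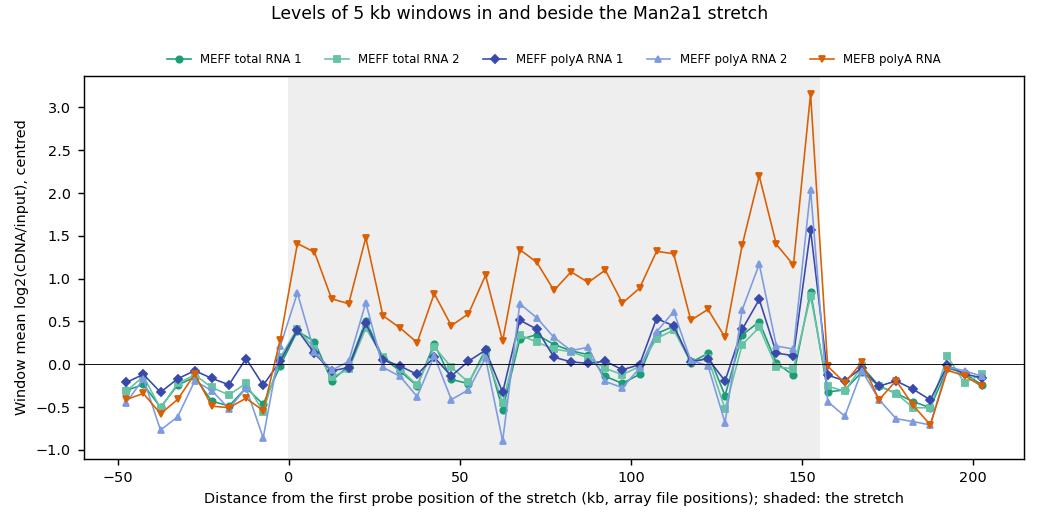
Mean log2(cDNA/input) of 5 kb windows against the distance from the first position of the stretch in kb of array file positions, for the 5 arrays, with the stretch shaded. The MEFB array lies above all MEFF arrays in each of the 31 shaded windows, and the arrays come together on both sides.

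The edges of the stretch were set from these same ratios, so the steps at them are a description. The first window inside read 0.39, 0.42, 0.40, 0.83 and 1.41 on the total RNA, MEFF polyA and MEFB arrays. The window just outside, which holds the first 6 exonic probes of exon 1, read −0.015, 0.082, 0.038, 0.21 and 0.29. At the other edge the first window outside read −0.32, −0.26, −0.13, −0.44 and −0.022.

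The exon mean of Man2a1 differed by 1.61 between the lines (MEFB minus MEFF polyA RNA) and its intron mean by 0.80. Without the 5 probes at the scanner limit the exon means were 2.80 and 3.71 on the polyA arrays of MEFF and 4.96 on the MEFB array, a difference of 1.70. Over the 417 genes the medians of these differences were 0.034 and −0.020. Man2a1 ranked 13 from the top for the exons and 6 for the introns. For exon minus intron the difference between the lines was 0.81 (SE 0.44, 95% interval −0.40 to 2.02, adjusted p = 0.76 in limma), where 1.68% of the 417 genes were called. After normexp it was 0.069, with an adjusted p of 0.97, where 7.91% were called, and after quantile normalization 0.60 with an adjusted p of 0.0097, where 12.2% were called. Exons and introns thus both read higher on the MEFB array, and whether the gap between them differed depended on the normalization. The input channel alone, centred on the array median, averaged 0.077 and 0.21 over the stretch on the polyA arrays of MEFF and 0.038 on the MEFB array. The cDNA channel alone averaged 2.97 and 4.23 over exonic probes on the polyA arrays of MEFF and 5.06 on the MEFB array, and 0.145, 0.35 and 1.00 over intronic probes. In the cDNA alone the MEFB array was again above both.

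Among the 417 placed genes, Man2a1 was high in exons and ordinary in introns on the MEFF arrays. Its exon mean ranked 38 and 39 from the top in total RNA, 19 and 43 in MEFF polyA and 4 in MEFB polyA. Its intron mean ranked 248 and 241 in total RNA, 241 and 265 in MEFF polyA and 71 in MEFB polyA. Exon minus intron ranked 12 and 14, then 7 and 6, then 5. Median exon means over the genes were 0.49 and 0.49 in total RNA, 1.05 and 1.68 in MEFF polyA and 1.56 in MEFB polyA. Levels of different genes rest on different probes, so the ranks hold for these ratios and not for RNA per length. The stretch was chosen for exon-like peaks in the same ratios, so its high exon and exon minus intron ranks are a description.

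**Figure D5:**
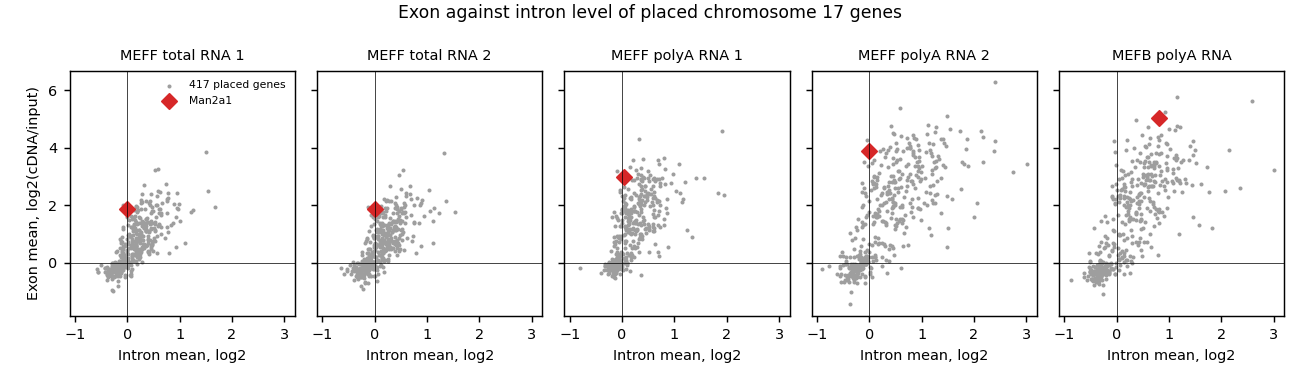
Exon mean against intron mean, both log2(cDNA/input) centred on the array median, for the 417 placed genes of chromosome 17 on each of the 5 arrays, with Man2a1 as a red diamond. On the MEFF arrays Man2a1 sits at an intron mean of about 0 with a high exon mean, and on the MEFB array it moves up and to the right.

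By the Euclidean distance over the exon and intron means of the 5 arrays (10 values), the genes most like Man2a1 were Wdr43 at 0.89, Map4k3 at 1.16, Smchd1 at 1.22, and Efna5 and Eml4, both at 1.28. Wdr43, which takes part in ribosome production, had exon means of 2.17 and 2.15 in total RNA, 2.93 and 3.66 in MEFF polyA and 4.72 in MEFB polyA. Map4k3, a protein kinase, had exon means of 1.83 and 1.77, then 2.62 and 3.56, then 4.07. Efna5, a membrane-bound ligand of Eph receptors, had 1.88 and 1.78, then 2.31 and 3.46, then 4.14. All 5 had lower exon means than Man2a1 on the MEFB array, and Wdr43 came closest.

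The neighbours of Man2a1 showed how local its signal was. On the left, AU016765 had exon means between −0.57 and −0.20 over the 5 arrays. Beyond it, Pja2, which encodes a ubiquitin ligase, had 3.23 and 3.05 in total RNA, 4.29 and 5.40 in MEFF polyA and 5.76 in MEFB polyA. Pja2 was thus above Man2a1 on each array. On the right, 4930583I09Rik and Tmem232 had exon means between −0.64 and −0.050. The nearest protein-coding neighbour on each side thus read below 0 in its exons on all 5 arrays.

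Of the 5 other genes of glycan processing and turnover looked up on the chromosome, 4 held exonic probes. Neu1, the lysosomal sialidase, had exon means of 0.57 and 0.56 in total RNA, 1.38 and 2.46 in MEFF polyA and 2.10 in MEFB polyA. Gnptg, a subunit of the enzyme that tags lysosomal proteins with mannose phosphate, had 0.57 and 0.625, then 1.26 and 2.2, then 2.62. St6gal2, a sialyltransferase of the Golgi, had exon means between −0.38 and −0.14, and Galnt14, which starts O-linked glycans, between −0.31 and −0.078. B3galt4 held no placed exonic probe. In exon minus intron, St6gal2 and Galnt14 differed between total and polyA RNA by 0.062 and −0.051, with adjusted p of 0.77 and 0.85 in limma. Neu1 and Gnptg had too few intronic probes for that fit. On each array all 4 had a lower exon mean than Man2a1.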

How the data were processed

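Double-stranded cDNA of 5 RNA samples was hybridised against sonicated genomic DNA of the same line on 2-colour arrays. The deposited values are raw intensity per probe and channel, extracted by the authors' array provider with NimbleScan 2.2.34, per the file headers, and they carry no background subtraction or normalization, judging from the values. From them log2(cDNA/input) was computed per probe, centred on the array median, and averaged over 5 kb windows with at least 8 probes (15383 windows) or over exonic and intronic probes of a gene. A probe was exonic with at least 25 of its 50 bases in an exon and intronic at 100 or more bases from any exon. The group comparison used limma 3.58.1 under R 4.3.3 (lmFit and eBayes on all 5 arrays, 3 group means, 2 residual degrees of freedom, Benjamini-Hochberg over all windows or over all 417 genes, threshold 0.05).

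The sources used here do not name the build of the file positions. Blocks of 25 kb, then 5 kb, were shifted along NCBIM37 until the base composition best predicted the input signal, which placed 336841 of 387986 probes (86.8%). Over the segments of Man2a1 the correlation of input with prediction was 0.293 to 0.522. The settings of this placing were chosen with its result at Man2a1 in view. In data simulated with the spread within the MEFF total RNA and polyA pairs over 15383 windows, a log2 change of 1 was found in 62 of 100 windows. A change of 2 was found in 86 of 100, and 2 others were called. The spread of the total RNA pair alone gave 88, 100 and 7. The MEFB array gave no spread, and noise was drawn independently for each window. Differences that run through a whole array were not simulated, so recovery in the real data may be lower.

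The members, gene lists and tests were chosen with earlier results of these data known. Named genes are Man2a1, its nearest 2 placed protein-coding neighbours on each side, the glycan genes B3galt4, Neu1, Gnptg, St6gal2 and Galnt14, and the 5 placed genes closest in profile. The alternatives were normexp with offset 50, quantile normalization, loess with a span of 0.3, cDNA without input, dim-input probes (lowest 10%) removed, probe medians, 2 kb windows with at least 4 probes, a fit of the groups compared, and each array left out. Normexp with each array left out, and the exon means without probes at the scanner limit, were added after seeing the data. The number of arrays limits the precision.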

Additional observations from a re-analysis of the deposited data

How the results depend on the processing

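Exon minus intron for total minus polyA RNA was negative in all settings. It passed the threshold after normexp (−1.72) and quantile normalization (−0.355), not after loess (−0.431, adjusted p = 0.53 in limma), and ranged from −2.05 to −1.10 with one array left out. For MEFB minus MEFF polyA RNA that measure was 0.60 and passed after quantile normalization, was 0.402 after loess and 1.29 with probe medians, both short of the threshold, and ranged from 0.334 to 1.29 with one array left out. It passed at both ends of that range, without MEFF polyA replicate 1 and replicate 2, where 48.9% and 56.6% of the genes passed.

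The mean level of the stretch, total minus polyA RNA, changed sign after normexp (0.0256), quantile normalization (0.0036) and loess (0.0282), and with probe medians (0.00211). In the cDNA channel alone it was −0.0558. The cause was not tested. For MEFB minus MEFF polyA RNA this level was 1.22 after normexp, 0.616 after quantile normalization, 0.874 after loess, 0.79 in the cDNA channel alone, 0.852 without dim-input probes and 0.796 with probe medians. With one array left out the levels ranged from −0.0924 to −0.0829 and from 0.838 to 0.843.

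Windows called numbered 1 after normexp, 2 after quantile normalization and 0 to 13 with one array left out for total minus polyA RNA, where 0 to 29.2% of all windows were called. For the lines they numbered 25 after normexp, 31 after quantile normalization, 25 after loess, with 2.91% of all windows called, and 0 to 31 with one array left out, with 0 to 45.4%. Over the chromosome, windows called went from 0 to 518 after normexp for total minus polyA RNA, and from 1 to 488 for the lines. Genes went from 0 to 235 and from 7 to 33.

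Normexp was also run with each array left out. Without total RNA replicate 1, total RNA replicate 2, MEFF polyA replicate 1 and MEFF polyA replicate 2, exon minus intron for total minus polyA RNA was −1.70, −1.74, −1.85 and −1.58. The level of the stretch differed by −0.0181, 0.0693, 0.0676 and −0.0165 between the fractions and by 1.22, 1.22, 1.26 and 1.18 between the lines. The windows called numbered 0, 0, 2 and 1 for the fractions and 19, 19, 30 and 29 for the lines. Over all windows 1.12%, 0.527%, 8.34% and 12.9% were called for the fractions, so the 2 and 1 are at or below the background, and 2.2%, 2.2%, 13.3% and 4.93% for the lines. Exon minus intron between the lines was −0.0659 without MEFF polyA replicate 1, the setting in which it changed sign. Without the MEFB array the fractions differed as with it, by −1.72 and 0.0256, with 1 window.

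No paired analysis was possible because the labels number no replicates, so the numbers used here follow accession order. A left-out MEFF array leaves its group with 1 array, which is then assumed to vary like the others. Differences of the size of the spread between the MEFF polyA arrays were not resolved. Probes at the scanner limit were kept, and their removal was added after seeing the data.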

Other observations

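Single intronic probes of Man2a1 stood out on the MEFB array alone. In intron 1, the probe placed at chr17:64952285 read 4.43 on the MEFB array and between 0.11 and 0.875 on the MEFF arrays, and the probe at chr17:64956125 read 5.58 against −0.030 to 0.49. Both were picked after their values were seen. No annotated exon of Man2a1 lies at either place, and each of these values comes from 1 spot of 1 array.

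The difference between total and polyA RNA along the 3′UTR was also seen after normexp. The probes in the last 500 bases of the gene averaged 1.87 and 1.26 in total RNA and 5.92 and 6.24 in MEFF polyA. In the rest of the 3′UTR, which Gm17133 overlaps in part, the values were 4.06 and 3.88 against 5.40 and 5.48. Intron minus flank after normexp was 1.14 and 1.01 in total RNA, 0.69 and 0.90 in MEFF polyA and 1.96 in MEFB polyA. After normexp both total RNA arrays were thus above both MEFF polyA arrays in intron minus flank, an order that the values without background correction did not show.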
